A study of Rattus norvegicus with 40 samples.

Results

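The 40 hippocampal arrays of rats exposed to lead during development were ranked by a myelin score, the mean log2 signal of Mog, Mag, Mobp and Cldn11, and the 10 arrays of highest score (the high set) were set beside the 10 of lowest score (the low set). The other 20 arrays belonged to neither set. Each gene entered by its probe set of highest mean, and each of the 4 had 1 probe set. The score chose the arrays, so every difference between the high and the low set is a description without a test. Genes that follow the score were tested only over the 20 arrays of neither set, except in alternatives that drew the sets otherwise. The effect of exposure on the score genes was tested between the groups of the study.

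Each array held RNA of 1 hippocampus sample from a rat killed at postnatal day 55, and the 10 groups had 4 arrays each. Arrays are named here by group and by their order in the series, 1 to 4, as the labels give no replicate numbers. Males and females had 250 ppm or 750 ppm lead acetate in the chow in 1 of 2 windows. In the perinatal window the dams ate it, starting 10 days ahead of breeding and ending when the pups were weaned. The postnatal window lasted from birth until day 45. Male and female controls had chow without lead, and all animals ended on control chow. The labels gave neither a strain nor litters, and p-values therefore rest on the spread among these arrays alone.

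Myelin is the multilayered sheath that oligodendrocytes wrap around axons, and in the hippocampus it is densest in the fibre tracts at its border, such as the alveus and the fimbria. Its layers are held together by a few abundant proteins and by lipids rich in galactosylceramide. Oligodendrocytes arise from precursor cells that carry Pdgfra and Cspg4 and switch on the myelin genes, under factors such as Sox10, as they mature.

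Array medians lay between 6.96 and 7.06 log2, and arrays correlated pairwise at r = 0.985 to 0.997 over all probe sets. The pyramidal neuron gene Neurod6 (mean 11.66 log2) and the dentate granule cell gene Prox1 (9.82 log2) were both measured well above the array medians. The X-linked gene Eif2s3 went against the sex label of 3 controls. Male control 4 lay among the exposed females (11.62 to 11.77 log2), and female controls 1 and 3 lay among the exposed males (11.15 to 11.42 log2). Male control 4 and female control 3 were in the low set. The 3 arrays of lowest slope against the mean of all arrays are called flattened here, a number that was set and not found by a threshold. They were male 750 ppm perinatal 1 (slope minus 1 of -0.0325) and male 250 ppm perinatal 3 (-0.0314) and 1 (-0.0191). The lowest of the other arrays read -0.0132. Of the flattened arrays, male 250 ppm perinatal 3 was in the high set. Main counts are also given without the flattened arrays and without the controls of mismatched sex label. Each sample title begins with a number, in the range 1970 to 1981 (12 arrays: all 8 controls and the females with 750 ppm perinatally), 2821 to 2876 (24 arrays) or 3444 to 3447 (4 arrays, the males with 750 ppm perinatally). What the numbers stand for was not given in the sources used here.

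The score ran over 0.50 log2, from 11.39 in male control 2 to 11.89 in male 250 ppm postnatal 3, with a median of 11.64. It averaged 11.82 ± 0.04 in the high set and 11.46 ± 0.05 in the low set (SD, n = 10 each), a difference of 0.36. The boundaries fell within a continuous range: the lowest array of the high set read 11.75 and the next 11.72, while the highest of the low set read 11.53 and the next above it 11.54. The 20 arrays of neither set covered only 0.18 log2 (SD 0.06, against 0.14 over all 40). In bulk tissue, fewer cells of a type and less RNA per cell cannot be told apart.

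Mag, the myelin-associated glycoprotein of the innermost wrap, read 11.33 to 11.54 log2 in the high set (median 11.49) and 10.95 to 11.18 in the low set (median 11.06), a difference of 0.41. Mog, a glycoprotein on the outer surface of the sheath, read 11.72 to 11.94 in the high set (median 11.80) and 11.23 to 11.60 in the low set (median 11.40), a difference of 0.39. Both glycoproteins read higher in every array of the high set than in any array of the low set. Mobp, a basic protein of compact myelin, read 11.74 to 11.95 in the high set (median 11.84) and 11.39 to 11.66 in the low set (median 11.51), a difference of 0.33. Cldn11, the claudin that forms the tight junctions between myelin layers, read 12.10 to 12.28 in the high set (median 12.17) and 11.74 to 12.05 in the low set (median 11.87), a difference of 0.31. None of the 4 genes overlapped between the sets, as the choice of arrays favours. Over the 40 arrays the 4 genes correlated pairwise at r = 0.68 (Mog with Mobp) to 0.89 (Mag with Mobp). With the mean of each exposure group subtracted, r ran from 0.53 (Mog with Mag) to 0.84 (Mag with Mobp), so arrays of 1 group also differed together in these genes. All such correlations share the arrays and their normalization.

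The promoters of the score genes are shown because these genes varied together over the arrays. RefSeq's table for build GRCr8 held 3 of them, from 250 bases before to 50 after the start, printed on the strand of the gene; Mog had no entry. Capitals mark matches on either strand to ACAAAG or ACAATG, cores of the type bound by Sox10 and other SOX factors, or to CAGCTG, an E-box of the type bound by basic helix-loop-helix factors. The windows lie at chr1:95290995-95291294 (minus strand) for Mag, at chr8:128746982-128747281 (plus strand) for Mobp and at chr2:114149490-114149789 (minus strand) for Cldn11.
Mag: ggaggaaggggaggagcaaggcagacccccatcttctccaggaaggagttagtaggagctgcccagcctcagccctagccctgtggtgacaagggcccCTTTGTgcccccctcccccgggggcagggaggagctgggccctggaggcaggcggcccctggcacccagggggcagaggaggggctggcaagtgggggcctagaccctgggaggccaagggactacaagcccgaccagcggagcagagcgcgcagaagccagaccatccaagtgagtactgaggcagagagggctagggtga
Mobp: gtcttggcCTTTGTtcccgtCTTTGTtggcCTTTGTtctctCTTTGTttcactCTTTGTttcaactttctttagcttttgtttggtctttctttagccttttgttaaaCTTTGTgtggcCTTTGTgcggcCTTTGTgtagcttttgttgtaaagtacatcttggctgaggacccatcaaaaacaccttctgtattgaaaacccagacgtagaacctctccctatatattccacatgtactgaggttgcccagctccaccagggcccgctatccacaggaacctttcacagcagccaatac
Cldn11: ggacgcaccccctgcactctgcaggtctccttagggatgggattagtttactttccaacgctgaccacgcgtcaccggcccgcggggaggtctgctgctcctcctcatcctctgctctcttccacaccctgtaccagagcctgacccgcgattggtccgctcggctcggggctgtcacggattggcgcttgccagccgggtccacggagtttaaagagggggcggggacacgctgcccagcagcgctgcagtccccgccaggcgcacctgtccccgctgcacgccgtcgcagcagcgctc
The Mobp window held 8 matches to ACAAAG, all read as CTTTGT on the gene strand and none overlapping, the Mag window held 1, and none of the 3 motifs matched in the Cldn11 window. ACAAAG occurred in 18.8% of all 33469 promoters of the table, ACAATG in 13.2%, CAGCTG in 15.1% and at least 1 of the 3 in 40.1%. Of the 12 genes that followed the score most closely (named below), 10 had a promoter in the table, and 3 of these held at least 1 motif. A match describes letters in a window and is not a binding site.

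The high and low sets were spread unevenly over the exposure groups. All 10 arrays of the high set came from exposed rats. The low set held 4 arrays of exposed rats and 6 of the 8 controls, including all 4 male controls. At 250 ppm, 8 of 16 arrays were in the high set and 1 was in the low set. At 750 ppm, 2 of 16 were in the high set and 3 in the low set. Scores averaged 11.73 ± 0.12 at 250 ppm and 11.63 ± 0.10 at 750 ppm (SD, n = 16 each), and 11.46 ± 0.07 in controls (n = 8). By window, 7 perinatal arrays were in the high set and 2 in the low set, and 3 postnatal arrays were in the high set and 2 in the low set, out of 16 each. By sex label, 3 male arrays were in the high set and 5 in the low set, and 7 female arrays were in the high set and 5 in the low set, out of 20 each.

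In order of mean score, the females with 250 ppm perinatally came first at 11.77 ± 0.06 (SD, n = 4 here and below), with 3 arrays in the high set. The males with 250 ppm perinatally followed at 11.76 ± 0.09 with 2 arrays in the high set, and the females with 250 ppm postnatally at 11.72 ± 0.13, also with 2. The groups of the first 3 places had all received 250 ppm. Next, within 0.01 log2 of each other, were the males with 250 ppm postnatally (11.67 ± 0.17, 1 array in each set), the males with 750 ppm postnatally (11.67 ± 0.03, none in either set) and the females with 750 ppm perinatally (11.67 ± 0.17, 2 arrays in each set). The males with 750 ppm perinatally read 11.61 ± 0.03 with none in either set, and the females with 750 ppm postnatally 11.56 ± 0.08 with 1 in the low set. Female controls read 11.50 ± 0.09 with 2 in the low set, and male controls 11.43 ± 0.04 with 4. Each group differed from its neighbour in this order by no more than the larger of their SDs. The arrays of 1 group could lie far apart: the males with 250 ppm postnatally held both rank 1 and rank 32 of the 40.

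**Figure D1:**
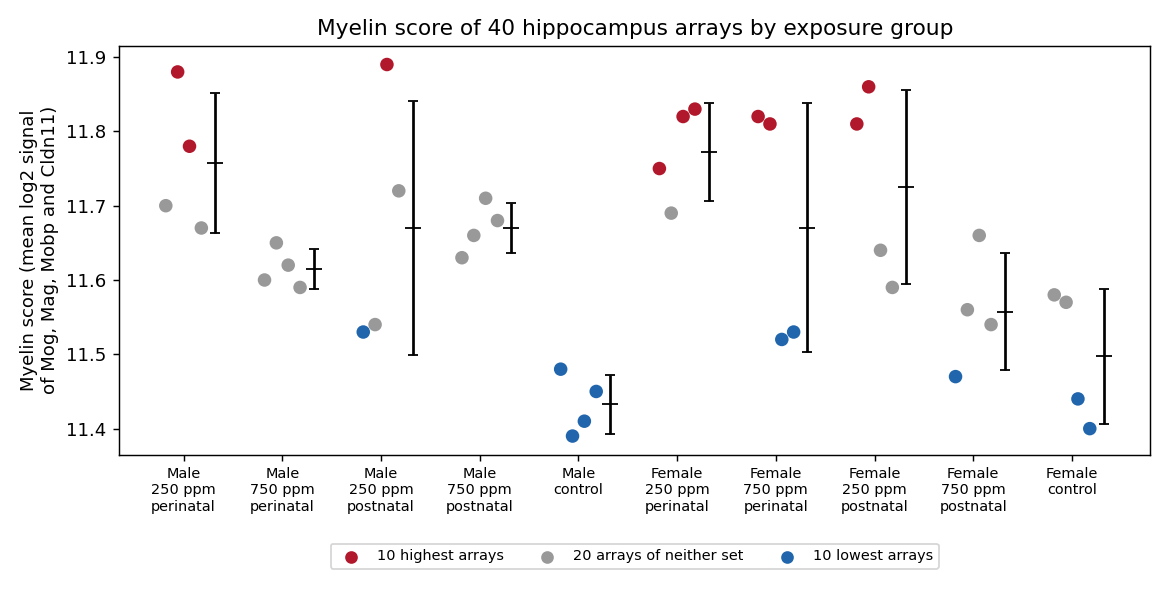
The myelin score (mean log2 signal of Mog, Mag, Mobp and Cldn11, vertical axis) of each of the 40 arrays by exposure group; points are arrays, marked by set, and bars are group means with the SD (n = 4). All points of the high set lie in exposed groups, and the 4 male controls all lie in the low set.

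Exposure and the number at the head of the titles ran together. The range 1970 to 1981 held 2 arrays of the high set and 8 of the low set, the range 2821 to 2876 held 8 of the high set and 2 of the low set, and the range 3444 to 3447 held none of either. All controls were in the first range, so for most groups exposure and number range cannot be told apart. The only exposed group in that range, the females with 750 ppm perinatally, split into 2 arrays of the high set (11.82 and 11.81) and 2 of the low set (11.53 and 11.52). Its mean of 11.67 ± 0.17 (SD, n = 4) stood beside 11.50 ± 0.09 in the female controls. The score correlated at r = 0.11 (n = 40) with the slope of each array against the mean of all arrays, which is low in flattened arrays.

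All 4 score genes read higher on average in all 8 exposed groups than in the controls of the same sex label, in 32 of 32 comparisons, but 1 of the 32 passed the test (limma, adjusted p under 0.05 over all probe sets). These comparisons are not independent, since 4 groups share the male controls and 4 the female controls. In females with 750 ppm postnatally, leaving out 1 array turned the difference of Mog to -0.01 and that of Mobp to -0.02. With all 8 controls as one group, 3 of the 32 passed. Cldn11 read 12.16 ± 0.11 log2 in males with 250 ppm perinatally and 11.83 ± 0.06 in male controls (SD, n = 4 each), a difference of 0.33 with SE 0.06 and a limma adjusted p of 0.0231. Of all probe sets, 0.0582% were called higher and 0.0308% lower in that comparison. In the other male comparisons, 0.0205% were called higher and 0.0377% lower with 750 ppm perinatally, 0.0274% higher and 0.00685% lower with 250 ppm postnatally, and 0.0274% higher and 0.0171% lower with 750 ppm postnatally. In the female comparisons, 0.00685% were called higher and 0.0103% lower with 250 ppm perinatally, 0.147% higher and 0.0103% lower with 750 ppm perinatally, 0.0103% higher and 0.00685% lower with 250 ppm postnatally, and 0.0137% higher and 0% lower with 750 ppm postnatally. Cldn11 was no longer called without the 3 flattened arrays (difference 0.34, adjusted p = 0.184, limma), which include exposed replicates 1 and 3 of this comparison. The difference thus did not shrink, but fewer arrays carried the test. Nor was Cldn11 called without the 3 controls of mismatched sex label, or when male control 2 or 4 or exposed replicate 2 or 3 was left out. In the same comparison Mog averaged 11.70 ± 0.13 in exposed males and 11.36 ± 0.06 in male controls, Mag 11.38 ± 0.11 in exposed males and 11.04 ± 0.09 in male controls, and Mobp 11.78 ± 0.07 in exposed males and 11.50 ± 0.07 in male controls (SD, n = 4 each). None of these 3 passed the test (limma adjusted p = 0.255, 0.184 and 0.288).

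Over the 8 comparisons the difference ran from 0.07 to 0.34 log2 for Mog, 0.07 to 0.34 for Mag, 0.02 to 0.28 for Mobp and 0.09 to 0.33 for Cldn11. The smallest differences of all 4 genes were in females with 750 ppm postnatally. An unadjusted p under 0.05 occurred in 23 of the 32, against 3.51% of all probe sets that were higher at that threshold over the same 8 comparisons. The interaction of sex label with lead was tested for the 4 genes at each dose and window, and 0 of 16 passed in limma (smallest adjusted p = 0.796, and 0 with an unadjusted p under 0.05).

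Outside the score, 70 of 29210 probe sets (0.24%) read higher in every array of the high set than in every array of the low set, and 7 (0.024%) read lower. As the arrays were chosen by measured values, nothing is read from these shares. The 70 included 52 named genes, 18 of which were on a list of 39 other myelin and oligodendrocyte genes, and 34 were not. Without the flattened arrays there were 73 probe sets, 52 of them among the 70, and without the mismatched controls 57, also with 52 of the 70. After subtraction of group means there were 32, with 17 of the 70 among them. Among the named ones the following were picked after their values were seen. P2rx7, an ATP-gated channel, read 8.15 to 8.60 log2 in the high set and 7.66 to 8.10 in the low set, a difference of 0.53. Pde8a, a cAMP phosphodiesterase, read 8.34 to 8.77 in the high set and 7.83 to 8.19 in the low set, a difference of 0.47. In the regression given below, over the arrays of neither set, P2rx7 had a slope on the score of -0.11 (SE 0.82). That of Pde8a was 0.46 (SE 0.43). The receptors Erbb3, for neuregulins, and Lpar1, for lysophosphatidic acid, differed by 0.39 and 0.38. The metalloprotease Adamts4 differed by 0.40, and Cers2, which makes ceramides of very long chain, by 0.27.

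There were 6 named genes that read lower in every array of the high set. Calhm5, of the calcium homeostasis modulator family, read 6.18 to 6.59 in the high set and 6.64 to 7.11 in the low set, a difference of -0.47. The others were Tpd52l1 (-0.31), Igfbp5, a binding protein of insulin-like growth factors (-0.31), Fbxl7, a substrate adaptor of a ubiquitin ligase (-0.30), the metalloprotease inhibitor Timp2 (-0.22) and Nnat, or neuronatin (-0.21). Tpd52l1, Igfbp5, Fbxl7 and Timp2 were named after their values were seen. Most of the 7 probe sets lost this separation under other choices of arrays: 2 of them kept it without the mismatched controls or with a score without Mog, Mag or Cldn11, and 1 after subtraction of group means, while all 7 kept it without the flattened arrays.

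Of the list of other myelin and oligodendrocyte genes 33 were measured, and all 33 averaged higher in the high set, by 0.04 (Il33) to 0.59 log2 (Tmem63a), with a median of 0.29. Over all 14502 named genes outside the score, 6715 averaged higher in the high set and 7787 lower, with a median of -0.01. The mean of the list read 10.33 to 10.54 in the high set and 10.05 to 10.19 in the low set, without overlap. The structural proteins of compact myelin were among them: Mbp, myelin basic protein, read 12.16 to 12.46 in the high set and 11.87 to 12.12 in the low set, a difference of 0.26, and Mal, a proteolipid of the sheath, read 11.71 to 12.10 in the high set and 11.38 to 11.68 in the low set, a difference of 0.39. Ugt8, the enzyme that makes galactosylceramide, read 10.62 to 10.89 in the high set and 10.19 to 10.40 in the low set, a difference of 0.45, and Fa2h, which hydroxylates the fatty acids of these lipids, read 10.49 to 10.77 in the high set and 10.09 to 10.28 in the low set, a difference of 0.43. Sox10, the transcription factor of the lineage, read 9.42 to 9.63 in the high set and 9.16 to 9.39 in the low set, a difference of 0.28. The serine protease Klk6 differed by 0.43 with overlapping sets (10.00 to 10.67 in the high set, 9.59 to 10.01 in the low set). All 33 stayed higher in the high set without the flattened arrays, without the mismatched controls, after subtraction of group means, and within the range 2821 to 2876 alone, where 6 arrays of highest score were set beside 6 of lowest (medians 0.24 to 0.30). The number of them without overlap was 18 of 33, and it was 14 without the flattened arrays, 12 without the mismatched controls, 7 after subtraction of group means and 16 within the range 2821 to 2876. Over all 29210 probe sets outside the score, the counts of high above low were 70, 73, 57, 32 and 130 in the same order.

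Of the markers of oligodendrocyte precursors, 10 of 12 averaged higher in the high set, with a median of 0.07. The median was 0.02 after subtraction of group means, and 9 of 12 were higher within the range 2821 to 2876. Those of largest difference mark cells on the way to myelination. Enpp6, a choline phosphodiesterase of newly formed oligodendrocytes, read 8.09 to 8.82 in the high set and 7.64 to 8.12 in the low set, a difference of 0.44. Bmp4, a growth factor made by committed precursors, differed by 0.25 and the receptor Gpr17 by 0.18, both with overlapping sets. Pdgfra and Cspg4, which mark dividing precursors, differed by -0.03 and 0.05. Of 17 measured genes of cholesterol synthesis, the pathway that supplies the main lipid of myelin, 9 averaged higher and 8 lower in the high set, with a median of 0.01.

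**Figure D2:**
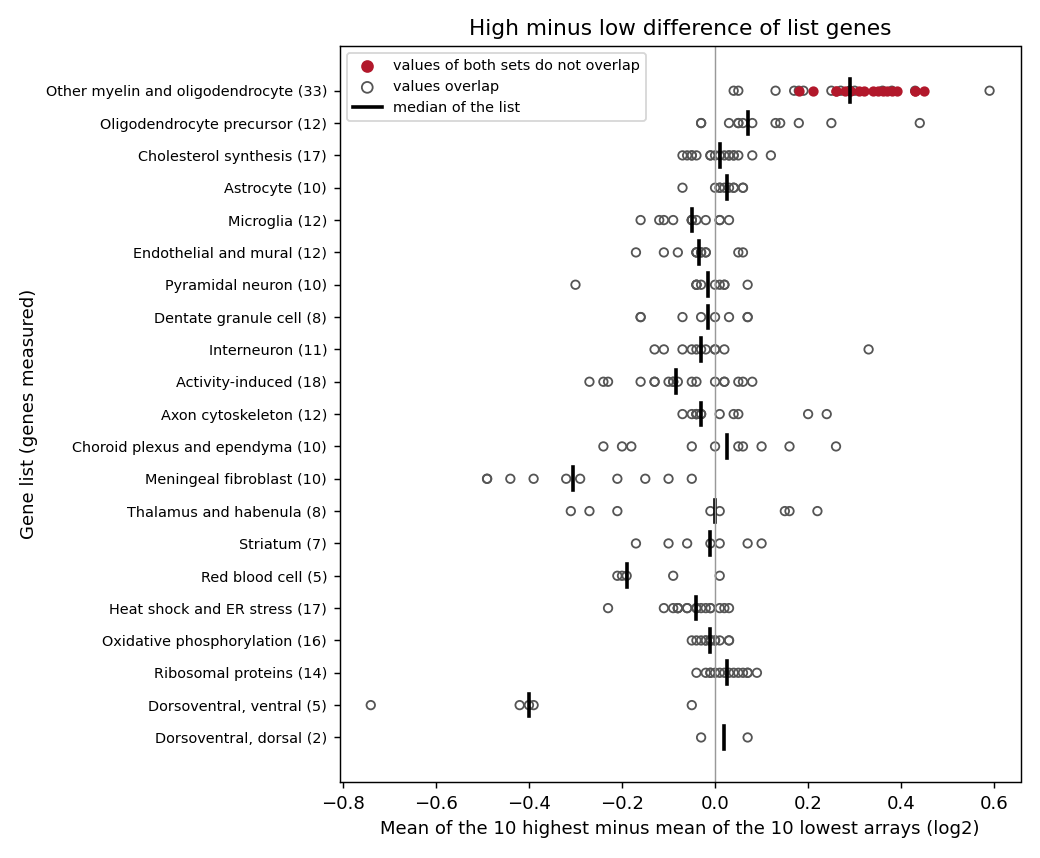
Difference between the high and the low set (mean log2 signal of the 10 arrays of highest score minus that of the 10 of lowest, horizontal axis) for each measured gene of each list; points are genes and bars are list medians. All 33 other myelin genes lie above 0, all 10 meningeal fibroblast genes lie below, and most other lists lie around 0.

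To ask which genes moved with the score inside the exposure groups, group means were subtracted from the score and from each gene, and genes were ranked by Pearson's r over the 40 arrays. This ranking uses the arrays that the score ranked, so r is given without a p. Of 14502 genes, 215 had r above 0.5 and 192 had r below -0.5. The list of other myelin genes held 27 of 33 above 0.5, with a median r of 0.74, against -0.03 over all genes.

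The closest follower was S1pr5, the sphingosine 1-phosphate receptor of oligodendrocytes, with r = 0.89 inside groups, 0.85 over the 40 arrays, 0.75 in the number range 1970 to 1981 (n = 12) and 0.87 in 2821 to 2876 (n = 24). It read 10.59 to 10.89 log2 in the high set, 10.32 to 10.70 in neither set and 10.21 to 10.41 in the low set. Slc44a1, a choline transporter, had r = 0.87 inside groups and 0.91 over the 40 arrays. It read 11.15 to 11.32 in the high set (median 11.20) and 10.94 to 11.07 in the low set (median 10.99). Fa2h had r = 0.86 inside groups, and Cnp, the cyclic nucleotide phosphodiesterase of non-compact myelin, had 0.84. Cnp read 11.93 to 12.12 in the high set and 11.67 to 11.82 in the low set, a difference of 0.29.

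The other 8 of the 12 closest were Rffl, an E3 ubiquitin ligase (0.84), Nkd1, an inhibitor of Wnt signalling (0.84), the membrane-shaping protein Fnbp1 (0.84), the secreted protein Lgi3 (0.84), carboxypeptidase M, Cpm (0.83), Plekhh1 (0.83), the motor protein Myo1d (0.83) and Evi2a (0.82), with r inside groups in parentheses. S1pr5, Fa2h, Cnp, Plekhh1 and Evi2a were on the list of other myelin genes. Among one another the 12 correlated at r = 0.64 to 0.88 inside groups (66 pairs, median 0.76), which their choice by r with the same score favours. Plekhh1 and Rffl followed the score unequally across number ranges: r was 0.19 and 0.44 in 1970 to 1981 (n = 12), and 0.84 and 0.88 in 2821 to 2876 (n = 24). For the other 10 it lay between 0.66 and 0.91 in the first range and between 0.78 and 0.91 in the other. Of the 12, only Rffl, Nkd1 and Plekhh1 overlapped between the high and the low set.

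**Figure D3:**
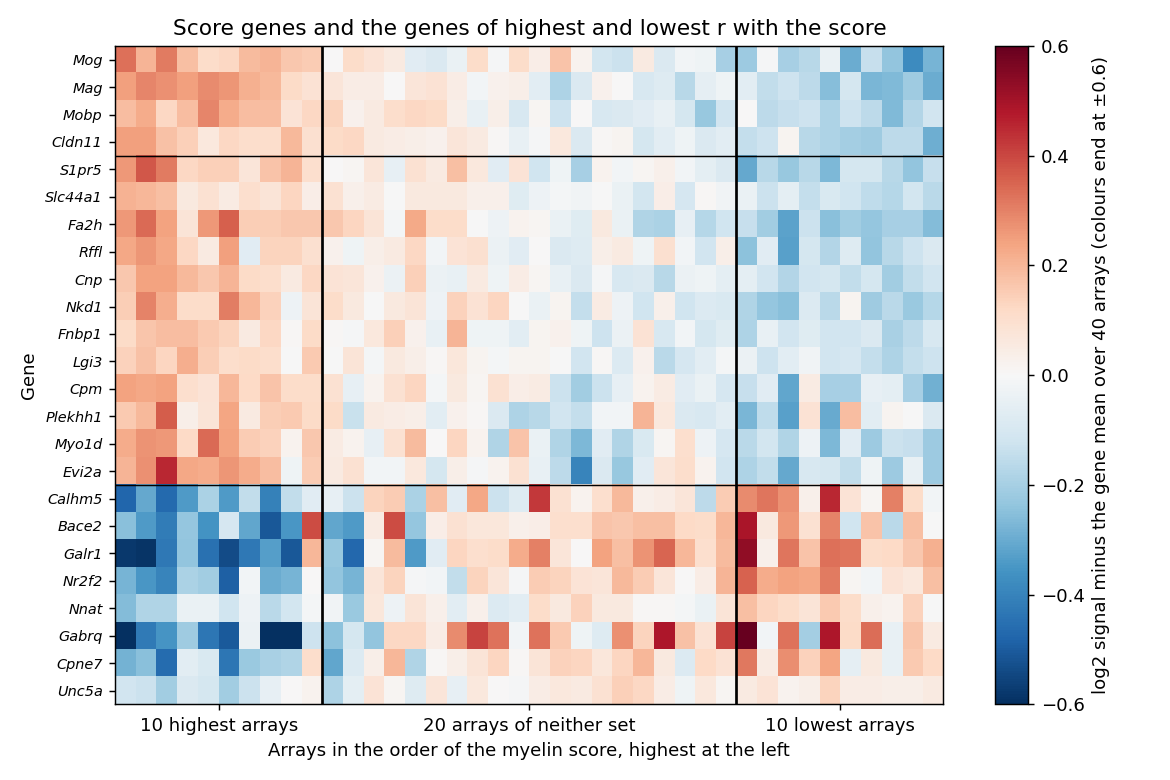
Log2 signal of the 4 score genes, the 12 genes of highest r and the 8 of lowest r inside exposure groups (rows), as the difference from the mean of each gene over the 40 arrays, with arrays ordered from the highest to the lowest score (columns). The 12 genes of highest r stand above their means at the high end and below at the low end, and the 8 of lowest r run the other way.

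No gene of lowest r was on the myelin list. The 8 of lowest r inside groups were Calhm5 (-0.81), Bace2, an aspartyl protease (-0.78), Galr1, a receptor for galanin (-0.78), Nr2f2, the nuclear receptor COUP-TFII (-0.77), Nnat (-0.76), Gabrq, the theta subunit of the GABA-A receptor (-0.76), Cpne7, a copine (-0.76) and Unc5a, a netrin receptor (-0.75). Galr1 read 7.46 to 8.25 log2 in the high set (median 7.61), 7.58 to 8.40 in neither set (median 8.17) and 8.08 to 8.58 in the low set (median 8.24), a high-minus-low difference of -0.62. Gabrq read 5.52 to 6.68 in the high set (median 6.29) and 6.51 to 7.39 in the low set (median 6.85), a difference of -0.64. Nr2f2 read 8.17 to 8.66 in the high set (median 8.38) and 8.64 to 9.01 in the low set (median 8.86), a difference of -0.42. For Galr1, Gabrq and Nr2f2 the sets overlapped at their ends, and the arrays of neither set lay nearer to the low set than to the high set in the median. The 8 genes correlated with one another at r = 0.59 to 0.91 inside groups (28 pairs, median 0.78). As all 8 were chosen for low r with the same score over these arrays, the choice favours such correlation. Within number ranges, r ran from -0.77 (Unc5a) to -0.35 (Gabrq) in 1970 to 1981 (n = 12) and from -0.85 (Nr2f2) to -0.67 (Bace2) in 2821 to 2876 (n = 24).

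**Figure D4:**
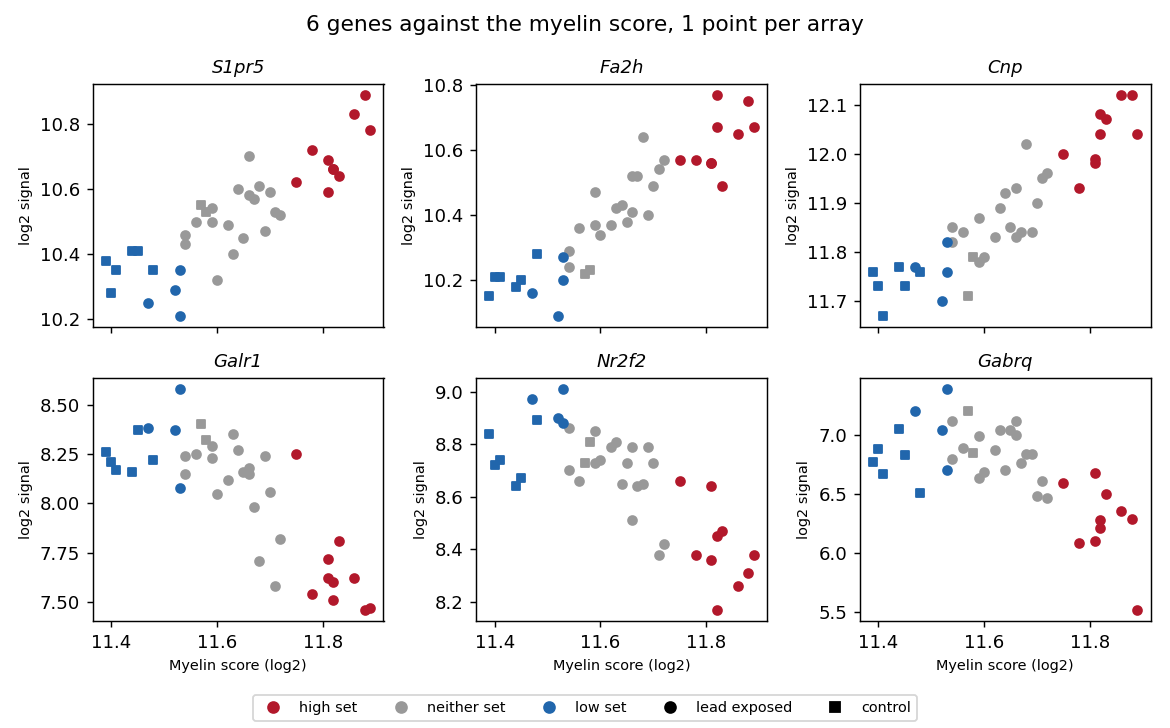
Log2 signal (vertical axes) against the myelin score (horizontal axes, log2) for genes of highest and lowest r, with 1 point per array, marked by set. In the genes of lowest r the high set lies low, with 1 array of the high set, female 250 ppm perinatal 1, at 8.25 in Galr1.

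As Nr2f2 is known from rodents as a gene of the ventral hippocampus, markers of the long axis were added after the values were seen. All 5 ventral genes averaged lower in the high set, with a median of -0.40: Trhr, the receptor of thyrotropin-releasing hormone (-0.74), Nr2f2 (-0.42), the serotonin receptor Htr2c (-0.40), the proteoglycan Dcn (-0.39) and Coch (-0.05). The mean of these genes read 8.40 to 8.80 in the high set and 8.80 to 9.11 in the low set. Nr2f2 was chosen for its low r and prompted the list, so its direction was known before the list was made. The dorsal genes Wfs1 and Ccn3 differed by 0.07 and -0.03. All 5 ventral genes also averaged lower without the flattened arrays, without the mismatched controls, after subtraction of group means and within the range 2821 to 2876 (medians -0.43 to -0.32). Over the 20 arrays of neither set, 3 of the 5 had a positive slope on the score in the regression given below, with a median of 0.22, and Nr2f2 (-1.20) and Htr2c (-2.57) had a negative one. Whether the position of the dissected tissue had a part in the score was not tested.

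Genes of the meninges also stood lower in the high set. All 10 measured meningeal fibroblast genes averaged lower, with a median of -0.31, led by Igf2 (-0.49), the proteoglycans Lum (-0.49) and Fmod (-0.44), and Dcn, which is also on the ventral list. The sets overlapped in all 10, and the list mean read 8.07 to 8.89 in the high set and 7.95 to 9.23 in the low set. All 10 were lower in the same 4 alternatives as the ventral genes, but over the arrays of neither set 7 of the 10 had a positive slope on the score (median 0.12). Choroid plexus and ependymal genes differed widely between arrays but not by set: the list mean read 6.97 to 10.02 in the high set and 6.95 to 9.97 in the low set, and 6 of 10 genes averaged higher. Over the arrays of neither set only 1 of these 10 had a positive slope on the score (median -7.79). In limma 0 of the 10 had an unadjusted p under 0.05 there. The part of meninges or choroid plexus in the score was not tested.

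Lists of other cells and tissues lay near 0. Of 10 astrocyte genes 8 averaged higher in the high set (median 0.02). Of 12 microglia genes 3 averaged higher and 9 lower (median -0.05), and of 12 endothelial and mural genes 2 higher and 10 lower (median -0.03). Pyramidal neuron genes divided 5 and 5 (median -0.02), and the one of largest difference, Fibcd1, a gene of CA1 neurons, read 9.10 to 9.60 in the high set and 9.38 to 9.71 in the low set, a difference of -0.30. Of 8 dentate granule cell genes 3 averaged higher and 5 lower (median -0.02). Of 11 interneuron genes 2 averaged higher and 9 lower (median -0.03). Calb2, calretinin, was the one of largest difference, at 7.91 to 8.89 in the high set and 7.91 to 8.25 in the low set, a difference of 0.33. Axonal cytoskeleton and node genes divided 5 higher and 7 lower (median -0.03), with Prph, or peripherin, at 0.24 and the sodium channel subunit Scn4b at 0.20.

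Genes of neighbouring tissue gave no common direction. Thalamic and habenular genes divided 4 and 4 (median 0.00): the protein kinase Prkcd differed by 0.22 and Slc17a6, a vesicular glutamate transporter, by 0.15, while the neuropeptide gene Tac1 differed by -0.31. Striatal genes divided 3 higher and 4 lower (median -0.01). Of 5 red blood cell genes 1 averaged higher and 4 lower (median -0.19). Of 18 activity-induced genes 5 averaged higher and 13 lower (median -0.08), with Dusp1 at -0.27, Egr2 at -0.24 and Npas4 at -0.23, and each of these 3 overlapped between the sets. Of 17 heat shock and endoplasmic reticulum stress genes 3 averaged higher and 14 lower (median -0.04), of 16 oxidative phosphorylation genes 3 higher and 13 lower (median -0.01), and of 14 ribosomal protein genes 10 higher and 4 lower (median 0.02).

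The test over the 20 arrays of neither set gave no call. Each probe set was regressed on the score with the number range as a term (limma, 16 residual degrees of freedom), and 0 of 29210 probe sets passed at an adjusted p under 0.05 (smallest adjusted p = 0.287). An unadjusted p under 0.05 occurred in 828 probe sets (2.83%), 457 with a positive slope (1.56%) and 371 with a negative slope (1.27%). The score covered only 0.18 log2 in these arrays, which limits what slopes they can show.

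The direction of the myelin genes in those arrays can be given as counts. Of the 33 other myelin genes 29 had a positive slope, against 48.7% of all probe sets, and 11 had a positive slope with an unadjusted p under 0.05, against 1.56%. None had a negative slope with an unadjusted p under 0.05, against 1.27%. The named gene of smallest p was Fa2h, whose signal changed by 1.37 log2 per log2 of score (SE 0.28, unadjusted p = 7.47e-05, adjusted p = 0.728, limma). It read 10.22 to 10.64 in these arrays. With 8 arrays in each set instead of 10, which leaves 24 arrays for the test, Fa2h passed with a slope of 1.34 (SE 0.21, limma adjusted p = 0.011). These 24 include the arrays of rank 9 and 10 from the high set and of rank 31 and 32 from the low set. The score chose those arrays, so nothing is read from this call.

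Next by p were Enpp6 with a slope of 2.59 (SE 0.57), Klk6 with 1.73 (SE 0.42), the amino acid transporter subunit Slc3a1 with 2.15 (SE 0.54), Ugt8 with 1.54 (SE 0.42) and the zinc finger gene Zfp189 with 2.11 (SE 0.62). In the other direction the smallest p belonged to Nell1, a secreted protein, with -1.58 (SE 0.36), Septin14 with -4.09, the olfactory receptor Or7g22 with -2.66, the kinase Pnck with -1.04 (SE 0.29), the sterol transporter Abcg5 with -1.79 and the olfactory receptor Or13c3g with -1.66. None of these passed the limma test. Not all of them differed between the high and the low set: Slc3a1 and Septin14 differed by 0.01, Abcg5 by 0.00 and Or13c3g by 0.07. Zfp189 differed by 0.11 and Or7g22 by -0.05. Enpp6, Klk6 and Ugt8 differed by 0.44, 0.43 and 0.45, and Nell1 and Pnck by -0.19 and -0.20. Of the 5 genes after Fa2h in the positive direction, Klk6 and Ugt8 were on the list of other myelin genes and Enpp6 on that of precursors. The olfactory receptors lay near the floor of the arrays, at 2.94 to 3.71 log2 for Or7g22 and 2.59 to 3.13 for Or13c3g.

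In exposed against control arrays, the genes that followed the score gave 1 call. Slc44a1 averaged 11.22 ± 0.07 log2 in males with 250 ppm perinatally and 10.96 ± 0.02 in male controls (SD, n = 4 each), a difference of 0.26 (SE 0.05, limma adjusted p = 0.0426). Slc44a1 was no longer called when any 1 of the 8 arrays of these groups was left out (differences 0.23 to 0.28, limma adjusted p = 0.066 to 0.202), without the flattened arrays (difference 0.28, adjusted p = 0.209) or without the mismatched controls (0.27, adjusted p = 0.108). Each of these fits has fewer arrays of the compared groups, and that without the flattened arrays lacks exposed replicates 1 and 3. A fit of the 2 compared groups alone did not call Slc44a1 either (difference 0.26, limma adjusted p = 0.139). Slc44a1 was the only one of the 12 closest followers and 8 opposed genes to pass in any of the 8 comparisons. Of all probe sets, 0.0582% were called higher in the comparison of Slc44a1. Over the 8 comparisons the share called in 1 direction ran from 0% to 0.147%. Fa2h, Cnp, Lgi3, Fnbp1, Nkd1 and Slc44a1 averaged higher in 8 of 8 exposed groups. Fa2h differed by 0.12 to 0.38 and Cnp by 0.06 to 0.25. S1pr5, Rffl and Myo1d averaged higher in 7 of 8, Cpm in 6, Evi2a in 5 and Plekhh1 in 3. Galr1 averaged lower in 8 of 8, by -0.50 to -0.01. In the comparison of its largest difference it averaged 7.76 ± 0.30 in males with 250 ppm perinatally and 8.26 ± 0.09 in male controls (SD, n = 4 each), with a limma adjusted p of 0.533. Bace2, Cpne7, Nnat and Unc5a averaged higher in 1 of 8, Calhm5 and Nr2f2 in 2 and Gabrq in 3.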

How the data were processed

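Hippocampal RNA (100 ng per sample) of 40 rats was measured on Affymetrix whole-transcript arrays, and samples were grouped by their labels alone. The deposited values are on a log2 scale. Per the submitters' processing notes the tools were RMA and Partek, with versions and settings not given in the sources used here. RMA subtracts background, brings all arrays to 1 distribution and combines the probes of a probe set. It thus removes differences in total signal between arrays, and a signal here is relative to the rest of its array. The values were used without change. Of 29214 probe sets, 15310 carried 1 symbol in the platform annotation, 323 several and 13581 none, and 15279 of those with 1 symbol matched RefSeq by gene ID. This gave 14506 genes, and where a gene had several probe sets the one of highest mean stood for it. The number of arrays limited the precision.

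Probe sets were regressed on the myelin score over the 20 arrays of neither set, with the range of the title number as a term, and each exposed group was compared with the controls of its sex label in a model of 10 group means. Both used limma 3.58.1 in R 4.3.3 with a variance trend and two-sided p-values, adjusted by Benjamini-Hochberg over all probe sets of a comparison and called under 0.05. Both were tried on simulated data, where the regression found only a small share of the smaller slopes put in. Figures used matplotlib 3.10.9.

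Genes were named by rule: the 4 score genes, the 12 of highest and 8 of lowest r with the score inside groups, up to 6 of smallest p per direction over the arrays of neither set, up to 4 of largest difference per list, and others where stated. The members, the lists and the tests were chosen with earlier results of these data known, and the ventral and dorsal list was added after these values were seen. Alternatives changed the genes, weights and size of the sets, the normalization, the covariates and the arrays. List members without a probe set of 1 symbol were not analysed here.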

Additional observations from a re-analysis of the deposited data

Results flagged for a closer look

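Dixon's criterion for 1 value far from the rest was applied to 90 groups of values, namely the score and its 4 genes in the 10 exposure groups and the 20 genes of highest or lowest r in the high and the low set. It marked 7, while chance marks about 1 in 20. In male control 3, Mobp read 11.39 log2, below the other male controls (11.53 and 11.54 at their ends). In male 250 ppm postnatal 3, the array of highest score, Mog read 11.94, and the nearest array of its group read 11.61. In female 750 ppm postnatal 4, Mog read 11.41, and the nearest of its group 11.57.

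Within the high set, Lgi3 read 11.16 in male 250 ppm perinatal 3, a flattened array, and the nearest read 11.27. Female 250 ppm perinatal 1, the array of lowest score in that set, read 8.08 in Bace2 (nearest 7.59) and 8.25 in Galr1 (nearest 7.81), where the low set read 7.53 to 8.18 and 8.08 to 8.58. Gabrq read 5.52 in male 250 ppm postnatal 3, and the nearest array of the high set read 6.09.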

How the results depend on the processing

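The number of probe sets without overlap depended on the arrays compared. High above low, 70 became 129 with 8 arrays in each set, 23 with 12, 32 after subtraction of group means, and 130 with 6 arrays each of the range 2821 to 2876 (chosen after seeing the data). It ranged from 52 to 73 with 1 array left out. High below low, 7 became 16, 3 and 2 with a score without Mog, Mag and Cldn11, 41 and 1 with 8 and 12 arrays in each set, 11 after a further quantile normalization, 3 without the mismatched controls and 127 in the range 2821 to 2876. With 1 array left out it ranged from 6 to 27, with 27 without female 250 ppm perinatal 1 and 13 without male control 2. Smaller sets leave fewer values that can overlap. A score without 1 of its genes kept 9 or 10 of the 10 high and 8 or 9 of the 10 low arrays, and subtraction of group means kept 7 and 5.

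The regression gave 1 call with 8 arrays in each set (Fa2h, limma adjusted p = 0.011) and 0 under every other alternative and with any 1 array left out (0 to 0). The arrays behind that call included some of the high and the low set as first drawn. The count of score genes called in exposed groups became 0 without the flattened arrays, among them male 250 ppm perinatal 1 and 3 (smallest limma adjusted p = 0.146). It was also 0 without the mismatched controls (smallest limma adjusted p = 0.083) and in fits of the compared groups only (0.126). It became 3 with all 8 controls as one group, where Mag and Cldn11 passed in females with 250 ppm perinatally, and ranged from 0 to 1 with 1 array left out. In females with 750 ppm postnatally, Mog differed by -0.01 and Mobp by 0.00 without female control 4, and Mobp by -0.02 without exposed replicate 3, and with 1 array left out Mog ranged from -0.01 to 0.13 and Mobp from -0.02 to 0.05. The differences between the high and the low set of the 24 genes of the score and of highest or lowest r kept their sign in all alternatives, and 11 of 336 values moved by more than 1 SD. These genes form the score or were chosen by their r with it over the same arrays, so the kept sign was favoured beforehand. Some alternatives, such as the mean over all probe sets of a gene, left both sets unchanged. The causes were not tested. No paired analysis was possible because the labels give no replicate numbers.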
